A study of Mus musculus with 18 samples.

Results

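The endoplasmic reticulum (ER) is where secreted proteins are made, folded and prepared for export, and collagens are its most demanding cargo in cells that build matrix. Described here are 42 genes of ER folding, secretion and collagen processing, chosen by name from the gene count table of mouse aortic smooth muscle cells. All 42 were among the 57180 genes of the table, and all 42 were among the 15832 genes that passed a filter on low counts and were tested. They were read in 9 role groups (GENCODE M21 positions on GRCm38 are given for the leading genes), with collagen modification, chaperones and translocation kept apart. The study isolated smooth muscle cells from the thoracic aorta of C57BL/6 mice, transfected them with siRNA, stimulated them and sequenced their RNA in bulk. Its 6 groups have 3 libraries each: cells with scramble siRNA, a control with no intended target, and cells with siRNA against Itgav, each left unstimulated, given TGF-β or given PDGF-BB. All cells had thus been transfected, and no untransfected cells were analysed here. Itgav encodes integrin αV, one chain of receptors for extracellular matrix and for the latent form of TGF-β; aortic aneurysm and dissection are the setting that the title gives. The labels give no dose, time, animal age or animal number, and leave unsaid if replicates came from separate cultures, so a p-value here reflects library-to-library spread that may be technical.

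As background, a collagen chain enters the ER through the translocon, and enzymes there hydroxylate its prolines and lysines before the triple helix closes. Prolyl 4-hydroxylation makes the helix stable at body temperature, lysyl hydroxylation prepares sites for sugars and crosslinks, and a separate complex 3-hydroxylates a few prolines. General chaperones and disulfide isomerases fold the ends of the chains, dedicated collagen chaperones hold the helix, and enlarged transport carriers take it to the Golgi. When unfolded protein accumulates, sensors in the ER membrane raise chaperone genes through factors such as XBP1 and ATF6, and cells that secrete much matrix also use CREB3-family factors. In the aortic wall, smooth muscle cells make collagen, and TGF-β is known to raise its synthesis.

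Some of the general chaperones among the members carry a known sequence element, shown first because no collagen enzyme searched held it. The ER stress response element (ERSE) is CCAAT, then 9 bases of any kind, then CCACG, which NF-Y, ATF6 and XBP1 are known to bind. RefSeq promoters (GRCm38.p6, 250 bases before to 50 bases after a gene's start) were matched by symbol to 35 of the 42 members. Creb3l1, Fkbp10, Hyou1, Lman1, P3h4, Plod2 and Sec61a1 had no match and were not searched. Searched on both strands, 6 of the 35 held the element (17.1%), against 0.137% of 27025 genes with a promoter in that table. They were 3 of the 6 searched members of the BiP and HSP90 cycle (Hspa5, Hsp90b1 and Dnajc3) and 3 of the 6 isomerases and lectin chaperones (Calr, Canx and Pdia6), while Dnajb9, Dnajb11, Sdf2l1, Pdia3, Pdia4 and Txndc5 held none. No match stood in the windows of the prolyl 4-hydroxylase, lysyl hydroxylation, 3-hydroxylation, collagen chaperone, translocation, ER exit or transcription factor members searched. The matches follow 5′ to 3′ on the strand of the gene, with the element in capitals and 5 bases of context on each side, and an element that begins with CGTGG lies on the opposite strand. Starts here are RefSeq's, and the GENCODE M21 start of Hspa5, given with its values, lies upstream of the element, which that annotation places inside the gene.
Hspa5 (chr2:34772020-34772048, plus strand; motif begins 65 bases before the start): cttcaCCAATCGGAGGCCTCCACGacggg
Hsp90b1, distal (chr10:86705633-86705661, minus strand; motif begins 212 bases before the start): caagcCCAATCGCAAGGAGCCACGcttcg
Hsp90b1, proximal (chr10:86705528-86705556, minus strand; motif begins 107 bases before the start): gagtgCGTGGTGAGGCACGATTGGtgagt
Dnajc3 (chr14:118937822-118937850, plus strand; motif begins 105 bases before the start): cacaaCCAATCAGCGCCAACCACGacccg
Calr (chr8:84847070-84847098, minus strand; motif begins 162 bases before the start): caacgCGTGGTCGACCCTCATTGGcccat
Canx (chr11:50325795-50325823, minus strand; motif begins 145 bases before the start): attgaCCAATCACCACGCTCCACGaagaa
Pdia6 (chr12:17266486-17266514, plus strand; motif begins 98 bases before the start): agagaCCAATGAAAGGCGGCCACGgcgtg

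Another motif, TGACGTGG, the core of the element bound by XBP1, was found on either strand in 3 of the 35 members (8.57%) against 0.714% of genes: Txndc5, Sec24d and Sec23a. Txndc5 is shown because it was one of the strongest responders among the folding genes, with the core in capitals and its start 138 bases before one of the 3 Txndc5 starts in the table. The GENCODE M21 start of Txndc5, given with its values, lies upstream of this site, which that annotation places inside the gene.
Txndc5 (chr13:38528034-38528063, minus strand): ggcctcgccgcTGACGTGGcgctagccgcc
ERSE-II, which is ATTGG, 1 base of any kind and CCACG, stood in the window of Dnajb11 alone among the members (2.86% against 0.0444% of genes), and TGACGTCA, the cyclic AMP response element, in 0 of 35 members against 2.03% of genes. The 5 letters CCACG, part of both ERSE forms, stood in 26 of 35 members (74.3%) against 35.5% of genes. A match describes letters only, and a window without one says nothing about binding. For the response to TGF-β described below, the 6 members with ERSE had log2 fold changes of 0.25 to 0.63 (median 0.32), and the 29 others with a promoter -0.15 to 2.11 (median 0.66).

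The largest member change by PDGF-BB, and by the siRNA in unstimulated cells, was that of Plod2, a lysyl hydroxylase with a well-known alternative exon, and that exon is shown for this reason. It is exon 14 of the 20 of transcript Plod2-203 in GENCODE M21, at chr9:92601985-92602047 on the plus strand of GRCm38, a coding exon of 63 bases, which is 21 codons. It is printed in capitals with 15 bases of each neighbouring exon.
Plod2-203, exon 14: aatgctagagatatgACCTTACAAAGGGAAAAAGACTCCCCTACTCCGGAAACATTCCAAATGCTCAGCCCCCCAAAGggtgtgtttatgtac
The share of Plod2 counts assigned to this transcript is given with the lysyl hydroxylases below.

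Facts of the whole series are brief. Deposited totals ran from 17705072 to 21592916 estimated counts per library, and values below are CPM, counts scaled to a common library size with TMM factors. The siRNA target checked the labels: Itgav measured 300 to 326 CPM in unstimulated scramble cells, 471 to 553 CPM with TGF-β and 307 to 336 CPM with PDGF-BB, against 14.1 to 29.7 CPM in the 9 siRNA libraries. The smooth muscle markers Acta2, Tagln, Myh11 and Cnn1 summed to 1805 to 1860 CPM in unstimulated scramble cells, 777 to 881 with the siRNA, 6298 to 6843 with TGF-β and 3035 to 3190 with both. With PDGF-BB they summed to 730 to 761 CPM in scramble and 199 to 216 CPM in siRNA cells. Acta2 and Tagln held most of each sum. Acta2, Tagln and Cnn1 were higher with TGF-β in both scramble and siRNA cells. Myh11 was higher with TGF-β in scramble cells (28.8 to 31.8 against 21.3 to 24.7 CPM). In siRNA cells Myh11 was lower with TGF-β (7.53 to 8.28 against 18.7 to 21 CPM). Sums of the 4 to 5 markers of each other cell type were at most 148 CPM in any library (endothelial 47.4 to 81.5, macrophage 7.34 to 20.6, adventitial fibroblast 31.7 to 148, mesothelial 17.6 to 125). Fibroblast and mesothelial sums moved with the groups, lowest in siRNA cells with TGF-β and highest in scramble cells with PDGF-BB, as the smooth muscle sums did in other directions. Cd34 was the largest part of the fibroblast sum and was lower with the siRNA in each medium, whereas Pdgfra and Dpt were higher with it in each. The mesothelial markers also split in scramble cells. Krt19 was at 29.2 to 34.3 CPM unstimulated and 82.1 to 107 CPM with PDGF-BB. Upk3b went the other way, from 42.4 to 45.1 CPM to 11.2 to 12.1 CPM. Msln, at 5.75 CPM or less, went with Krt19, and Wt1 overlapped. For all of these lists their part in the results below was not tested. Adgre1, which defines macrophages, was at or under 0.171 CPM in every library, and Lum and Ptprc, of fibroblasts and leukocytes, reached 0 in some. In bulk samples, fewer cells of a type and less RNA per cell cannot be told apart. A gene is called to rise or fall where edgeR's quasi-likelihood p, adjusted by Benjamini-Hochberg over all 15832 genes, is under 0.05. Standard errors follow the log2 fold changes.

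TGF-β raised nearly the whole set. In scramble cells 40 of the 42 members rose with TGF-β, where 23.4% of all genes tested rose and 24.8% fell (48.3% in either direction), and the median member had a log2 fold change of 0.64 against -0.01 over all genes. The members were chosen with earlier results of these data known, so such shares here and below describe the set and are not an independent result. Not a single member fell (0 at an unadjusted p under 0.05, and 0 in DESeq2). Crtap (0.08) and Sdf2l1 (-0.15) did not pass. Of the 40, 24 rose at least 1.5-fold, led by the transcription factor Creb3l2 (4.32-fold), the disulfide isomerase Txndc5 (3.19-fold), the lysyl hydroxylase Plod2 (2.85-fold) and the prolyl 3-hydroxylase P3h1 (2.78-fold). The share of all genes past 1.5-fold was not counted. The members are well expressed genes, with 18-library means of 19.6 CPM or more, and among the 7492 genes at or above that mean 32% rose and 28.8% fell with TGF-β. Summed over the 42 members, the level went from 12633 to 12859 CPM in the unstimulated scramble libraries to 20340 to 20424 CPM with TGF-β.

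PDGF-BB moved the set less and mostly downward. In scramble cells 2 members rose and 18 fell with PDGF-BB, where 16.9% of all genes rose and 19.2% fell (36.1% in either direction), and 22 did not pass. Of the 7492 genes at or above the lowest member mean, 21.5% rose and 27.8% fell. The member median was -0.10 against 0.01 over all genes, and the summed level was 11124 to 11672 CPM. The falls past 1.5-fold were those of Plod2 (-1.22), the prolyl 4-hydroxylase subunit P4ha3 (-0.95) and Txndc5 (-0.88). The rises were those of Fkbp10 (0.28) and Plod1 (0.15). Between the stimuli, 41 of 42 members were higher with TGF-β than with PDGF-BB, where 28% of all genes were (56.9% differed in either direction), and none was lower (0 at an unadjusted p under 0.05, and 0 in DESeq2). The exception was Sdf2l1 (-0.08), and the largest gaps were those of Plod2 (6.65-fold), Txndc5 (5.87-fold), Creb3l2 (5.41-fold) and P4ha3 (4.31-fold). Of the same 7492 genes, 38.4% were higher with TGF-β than with PDGF-BB and 32.6% lower. The comparisons with unstimulated cells share the 3 unstimulated scramble libraries.

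**Figure D1:**
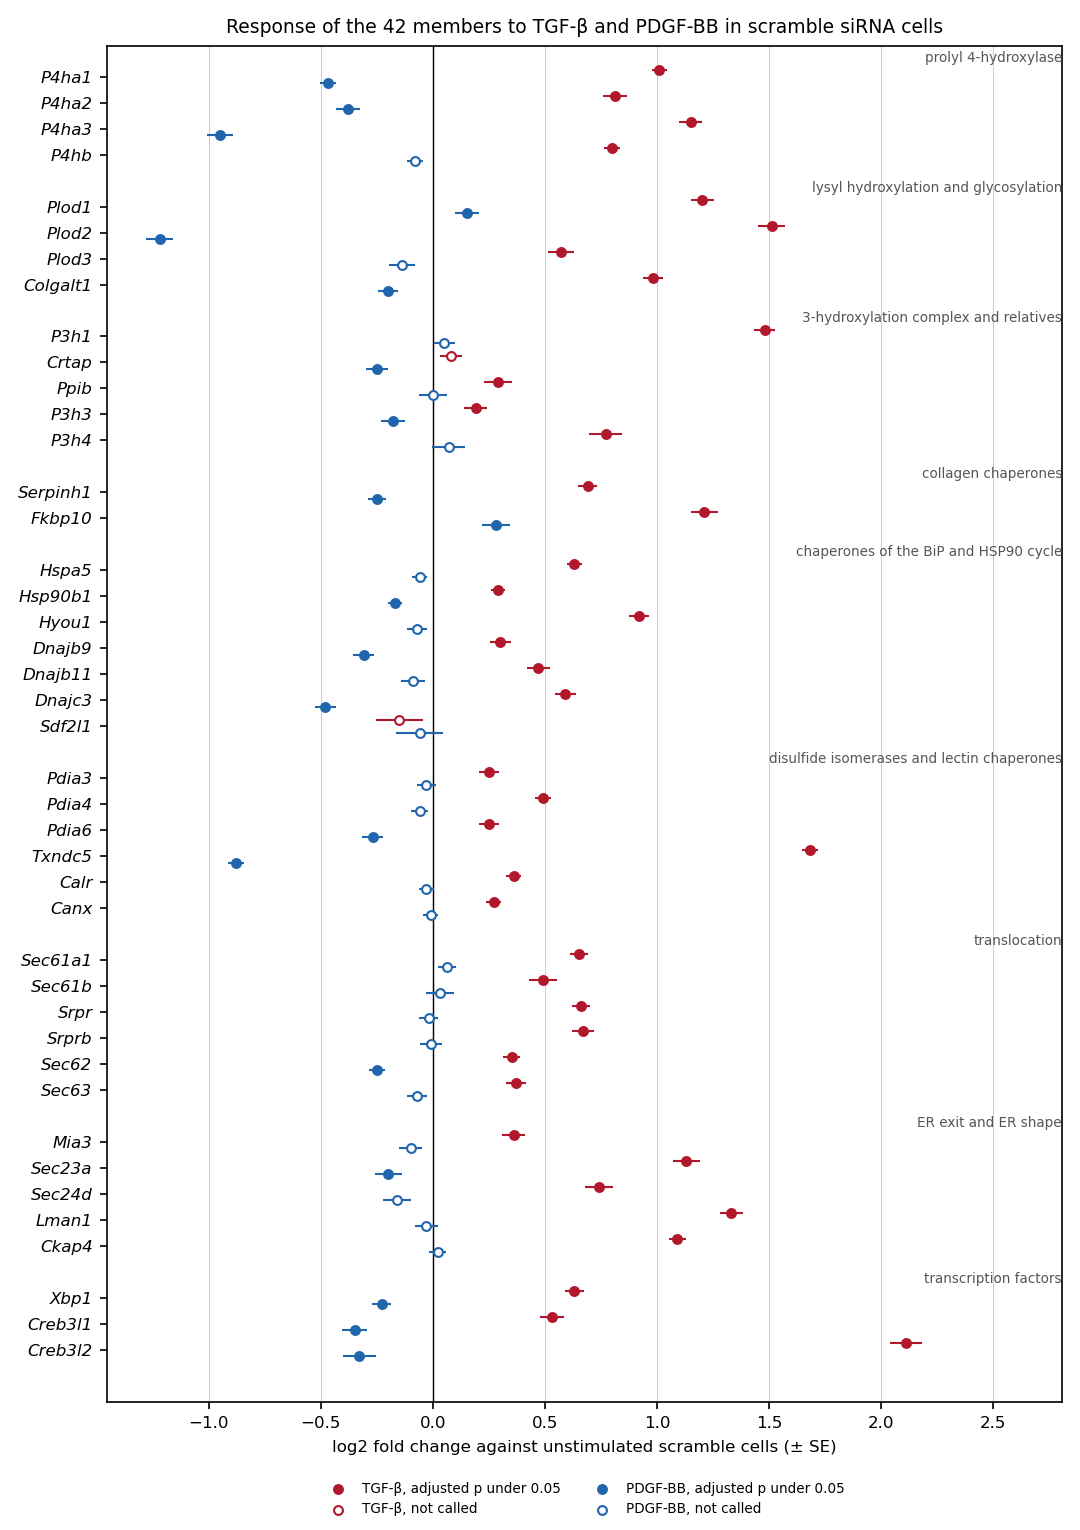
Log2 fold change with its standard error (horizontal axis) of each of the 42 members, by role, for TGF-β (red) and PDGF-BB (blue) against unstimulated scramble cells, 3 libraries a group; filled points passed an adjusted p under 0.05. The red points lie right of 0 for 41 members, up to 2.11 for Creb3l2, and the blue points run from -1.22 for Plod2 to 0.28 for Fkbp10.

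With the Itgav siRNA, members passed in both directions in unstimulated cells and mostly upward under TGF-β. Without stimulation 20 members rose and 14 fell with the siRNA, where 25.9% of all genes rose and 27.5% fell (53.4% in either direction), with a member median of 0.04 and a sum of 12424 to 12538 CPM. Under TGF-β 28 rose and 4 fell, against 24.1% and 24.3% of all genes (48.4% in either direction), with a median of 0.31 and a sum of 22898 to 23131 CPM. Under PDGF-BB 22 rose and 8 fell, against 29.4% and 29.9% of all genes (59.3% in either direction), with a median of 0.13 and a sum of 12009 to 12206 CPM. The median over all genes was 0.01 in each medium. Among the 7492 genes at or above the lowest member mean, 29.3% rose and 39.7% fell without stimulation, 28.5% and 35.3% under TGF-β and 34.5% and 41.4% under PDGF-BB. Under TGF-β and under PDGF-BB the share of members that fell was below both the share of such genes and that of all genes. Without stimulation, 14 of 42, it lay between the 27.5% of all genes and the 39.7% of such genes. Members past 1.5-fold numbered 2 without stimulation (Plod2 down, Lman1 up), 12 under TGF-β and 5 under PDGF-BB. How many of all genes passed 1.5-fold was not counted, so these numbers have no general rate beside them.

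**Figure D2:**
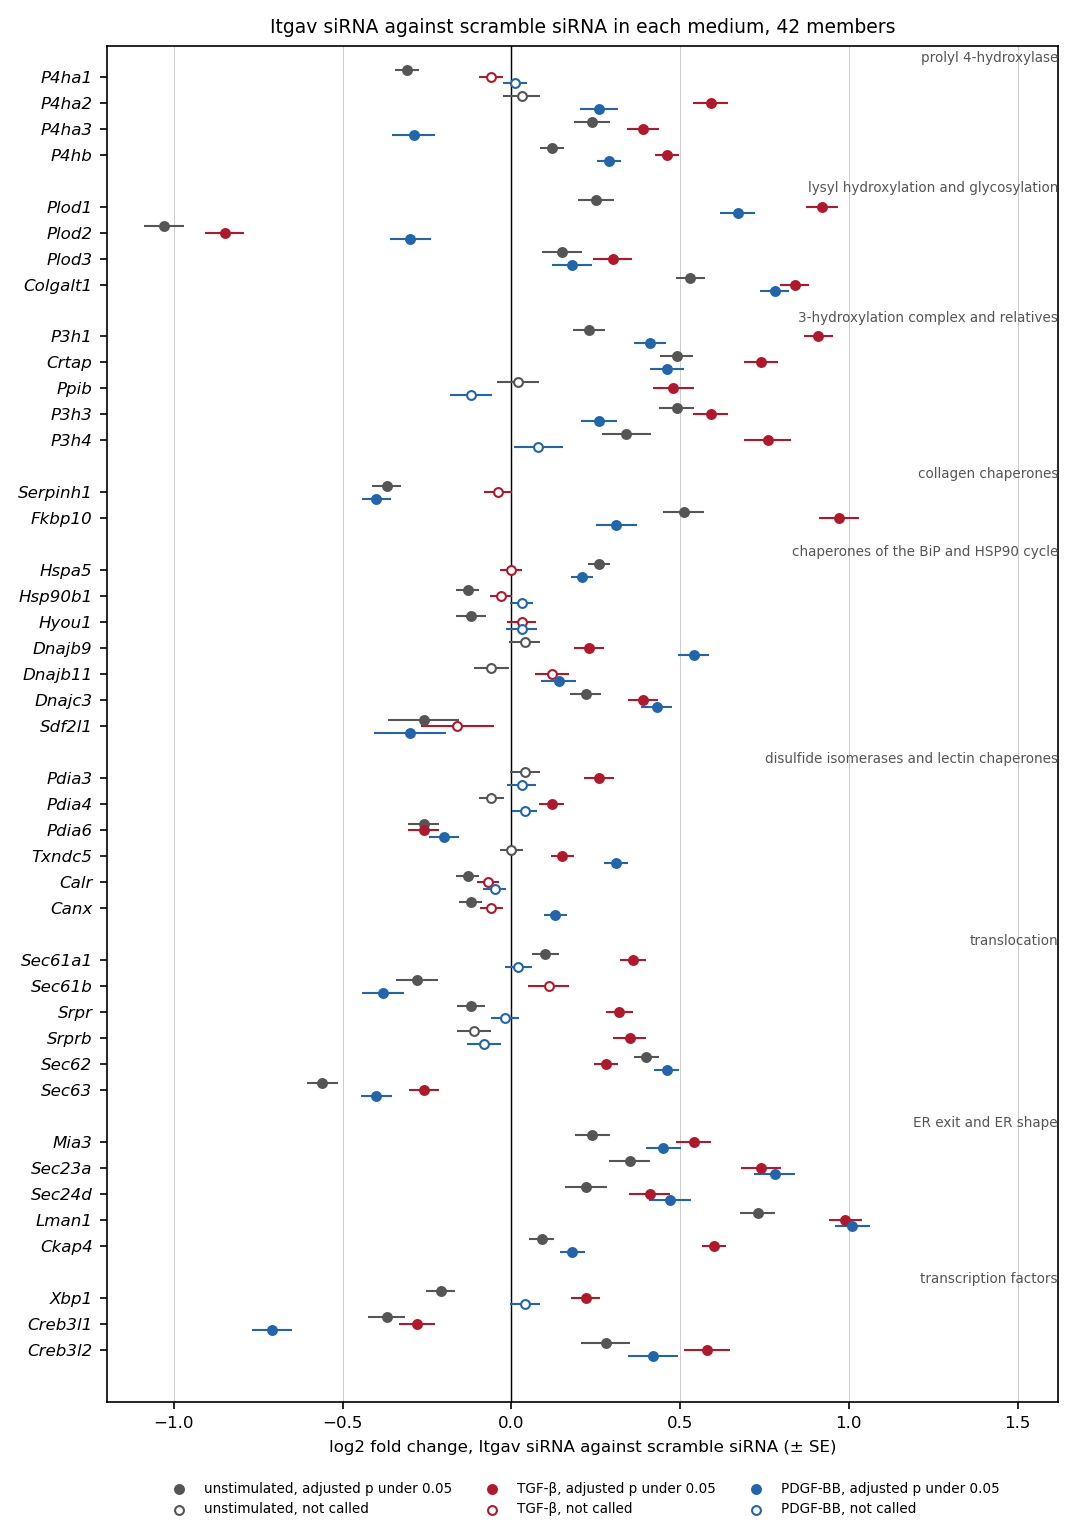
Log2 fold change with its standard error (horizontal axis) of Itgav siRNA against scramble siRNA for each of the 42 members, by role, in unstimulated cells (grey), with TGF-β (red) and with PDGF-BB (blue), 3 libraries a group; filled points passed an adjusted p under 0.05. Plod2 lies farthest left without stimulation at -1.03, and Lman1 farthest right in all 3 media, at 0.73, 0.99 and 1.01.

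By role, the sums show where the reads went. The lysyl hydroxylation sum went from 682 to 743 CPM to 1632 to 1782 CPM with TGF-β, and lay lower with the siRNA both without stimulation (567 to 592 CPM) and with TGF-β (1502 to 1544 CPM). With PDGF-BB it was higher with the siRNA, 534 to 550 against 452 to 464 CPM, and Plod2 was the one gene of the 4 that the siRNA lowered. The ER exit sum went the other way with the siRNA, from 716 to 747 CPM to 893 to 905 CPM unstimulated and from 1342 to 1471 CPM to 2252 to 2262 CPM with TGF-β. Disulfide isomerases and lectin chaperones held the most reads in every library, 3908 to 6914 CPM. Per kilobase of exon and over all 18 libraries, the collagen chaperone Serpinh1 was the highest member (492 CPM per kilobase), followed by Pdia3 (421), Calr (367), Hsp90b1 (366) and P4hb (333), and Plod1 the lowest (12.4). The length used joins all exons that GENCODE M21 gives a gene. It can exceed that of the transcripts present, so ranks per kilobase are approximate.

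**Figure D3:**
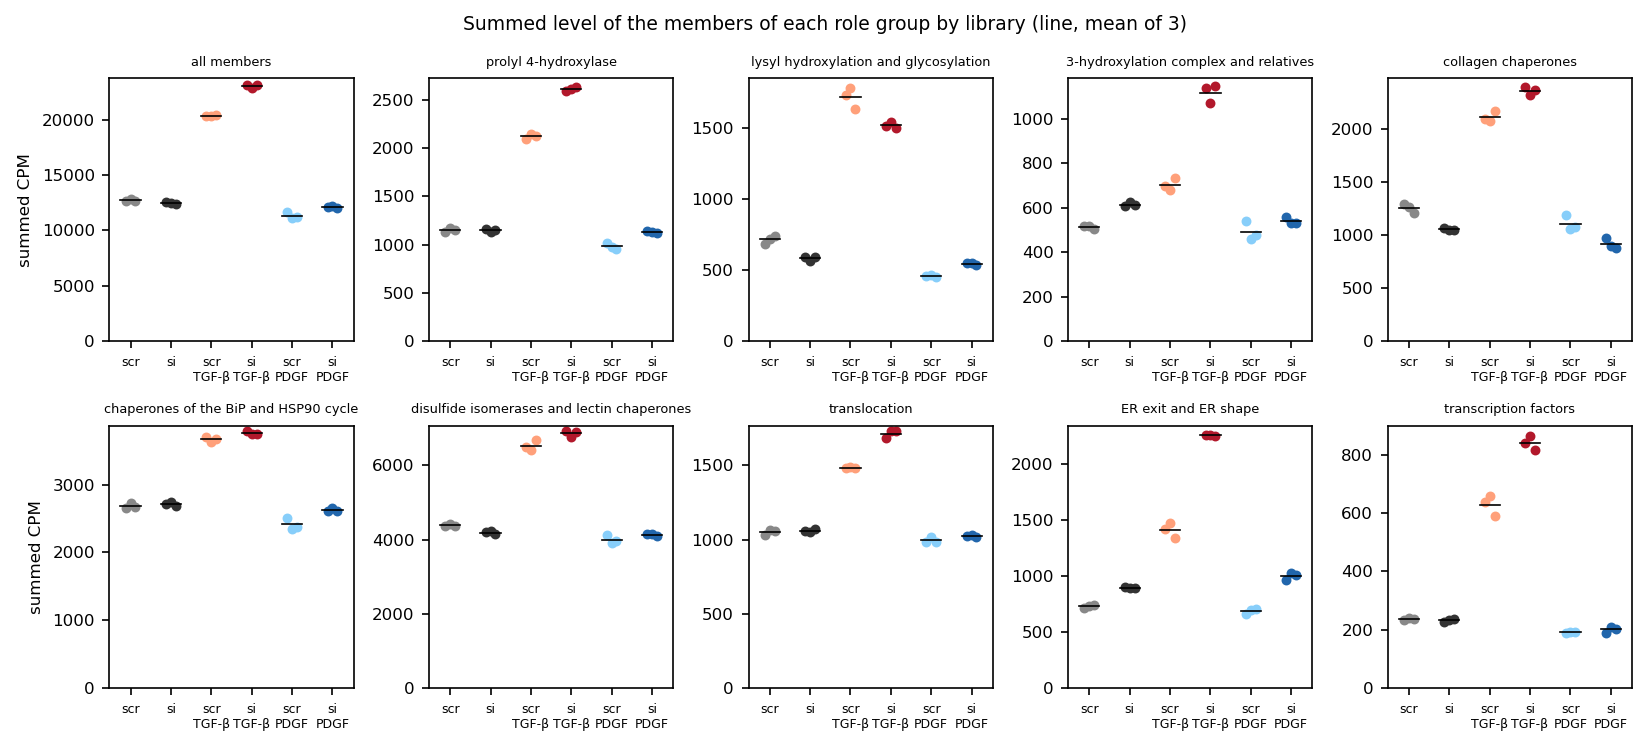
Summed CPM of the members of each role group (vertical axis, from 0) in each of the 18 libraries, with a line at the mean of 3, for scramble (scr) and Itgav siRNA (si) cells in the 3 media. The TGF-β libraries are the highest in each panel, and within TGF-β the siRNA libraries lie above scramble in every panel but the lysyl one, where they lie below.

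Prolyl 4-hydroxylase is a tetramer of α subunits, made by P4ha1, P4ha2 or P4ha3, and the β subunit P4hb. All 4 genes rose with TGF-β by 1.74- to 2.23-fold, and the 3 α subunits fell with PDGF-BB. The siRNA moved the α subunits apart: without stimulation P4ha1 fell, P4ha3 rose and P4ha2 did not pass. Per kilobase, P4ha1 (107 CPM per kilobase) stood above P4ha3 (16) and P4ha2 (12.8) over the 18 libraries. P4ha1 is the main α subunit by level. P4ha1 lies on chromosome 10, 59323296 to 59373304, plus strand. P4ha1 stood at 356, 379 and 368 CPM in the unstimulated scramble libraries, at 737, 737 and 750 CPM with TGF-β and at 264, 271 and 264 CPM with PDGF-BB. With the siRNA, P4ha1 stood at 307, 291 and 293 CPM unstimulated, at 724, 713 and 697 CPM with TGF-β and at 273, 266 and 264 CPM with PDGF-BB. The 6 libraries with TGF-β lie far above the rest, the siRNA libraries lie below scramble without stimulation, and the PDGF-BB groups overlap. P4ha1 had a log2 fold change of 1.01 ± 0.035 with TGF-β (adjusted p = 3.5e-16) and of -0.47 ± 0.035 with PDGF-BB (adjusted p = 6.6e-10). For P4ha1, the siRNA effect was -0.31 ± 0.035 unstimulated (adjusted p = 1.8e-07), -0.06 ± 0.035 with TGF-β (adjusted p = 0.16) and 0.01 ± 0.035 with PDGF-BB (adjusted p = 0.89). P4ha2 is another catalytic α subunit. P4ha2 lies on chromosome 11, 54100095 to 54131665, plus strand. In scramble cells P4ha2 measured 60.6, 60 and 56.9 CPM unstimulated, 97.1, 104 and 111 CPM with TGF-β and 47.3, 45.4 and 43.8 CPM with PDGF-BB. In siRNA cells P4ha2 measured 61.2, 61.2 and 58.4, then 153, 156 and 161, then 57.1, 55.1 and 51 CPM in the same media. The siRNA libraries with TGF-β are the highest and do not overlap any other group, while the unstimulated groups overlap. For P4ha2, TGF-β gave a log2 fold change of 0.81 ± 0.053 (adjusted p = 1.9e-11) and PDGF-BB one of -0.38 ± 0.055 (adjusted p = 1.1e-05). P4ha2 had siRNA effects of 0.03 ± 0.054 unstimulated (adjusted p = 0.71), 0.59 ± 0.051 with TGF-β (adjusted p = 2.4e-09) and 0.26 ± 0.056 with PDGF-BB (adjusted p = 0.00037). P4ha3 encodes the remaining α subunit. P4ha3 lies on chromosome 7, 100285520 to 100319699, plus strand. P4ha3 in unstimulated cells was at 38.4, 34.8 and 36.5 CPM with scramble and at 45.6, 42.3 and 41.9 CPM with the siRNA. P4ha3 was at 77.3, 84.6 and 82.3 against 107, 105 and 107 CPM under TGF-β, and at 19.4, 18.4 and 18.8 against 15.4, 14.9 and 15.9 CPM under PDGF-BB. The siRNA libraries lie above scramble without stimulation and with TGF-β and below scramble with PDGF-BB, with no overlap in any medium. P4ha3 had a log2 fold change of 1.15 ± 0.052 with TGF-β (adjusted p = 2.9e-14) and of -0.95 ± 0.058 with PDGF-BB (adjusted p = 1.3e-11). For P4ha3, the siRNA effect was 0.24 ± 0.053 unstimulated (adjusted p = 0.00057), 0.39 ± 0.049 with TGF-β (adjusted p = 7.7e-07) and -0.29 ± 0.063 with PDGF-BB (adjusted p = 0.00039). P4hb is also protein disulfide isomerase, shared with other folding reactions. P4hb stood at 673, 701 and 691 CPM in the unstimulated scramble libraries, at 1188, 1216 and 1181 CPM with TGF-β and at 690, 640 and 629 CPM with PDGF-BB. With the siRNA, P4hb stood at 751, 732 and 759 CPM unstimulated, at 1610, 1635 and 1673 CPM with TGF-β and at 798, 797 and 791 CPM with PDGF-BB. Values in siRNA cells lie above scramble in each medium without overlap. For P4hb, TGF-β gave a log2 fold change of 0.80 ± 0.036 (adjusted p = 2.9e-14) and PDGF-BB one of -0.08 ± 0.035 (adjusted p = 0.099). P4hb had siRNA effects of 0.12 ± 0.035 unstimulated (adjusted p = 0.0076), 0.46 ± 0.035 with TGF-β (adjusted p = 4.2e-10) and 0.29 ± 0.035 with PDGF-BB (adjusted p = 4.7e-07).

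Lysyl hydroxylases, made by Plod1, Plod2 and Plod3, hydroxylate collagen lysines, and Colgalt1 adds galactose to the product. All 4 genes rose with TGF-β by 1.48- to 2.85-fold. Plod2, which acts on the telopeptides that form crosslinks, was the exception under the siRNA: it fell in all 3 media, while Plod1, Plod3 and Colgalt1 rose in all 3. Plod2 also fell with PDGF-BB, to 0.429 of its unstimulated level. Plod1 acts on the helical part of the chain. Plod1 lies on chromosome 4, 147909753 to 147936767, minus strand. In scramble cells Plod1 measured 43.5, 42.3 and 42.8 CPM unstimulated, 93.6, 95.5 and 107 CPM with TGF-β and 49, 47.8 and 45.5 CPM with PDGF-BB. In siRNA cells Plod1 measured 53.1, 50.2 and 50, then 186, 190 and 183, then 75.5, 76.8 and 73.3 CPM in the same media. The siRNA libraries with TGF-β all exceed any scramble library. Plod1 had a log2 fold change of 1.20 ± 0.051 with TGF-β (adjusted p = 1.2e-14) and of 0.15 ± 0.053 with PDGF-BB (adjusted p = 0.035). For Plod1, the siRNA effect was 0.25 ± 0.053 unstimulated (adjusted p = 0.00033), 0.92 ± 0.048 with TGF-β (adjusted p = 6.1e-13) and 0.67 ± 0.051 with PDGF-BB (adjusted p = 2.5e-10). Its small rise with PDGF-BB was lost in 7 of 12 alternative fits. Plod2 is the telopeptide lysyl hydroxylase. Plod2 lies on chromosome 9, 92542223 to 92608428, plus strand. Plod2 in unstimulated cells was at 382, 415 and 433 CPM with scramble and at 201, 197 and 206 CPM with the siRNA. Plod2 was at 1198, 1245 and 1065 against 647, 664 and 636 CPM under TGF-β, and at 158, 189 and 180 against 140, 143 and 146 CPM under PDGF-BB. Each siRNA group lies below its scramble group without overlap, yet the siRNA libraries with TGF-β still exceed every library without TGF-β. For Plod2, TGF-β gave a log2 fold change of 1.51 ± 0.06 (adjusted p = 3.3e-15) and PDGF-BB one of -1.22 ± 0.061 (adjusted p = 5.2e-13). Plod2 had siRNA effects of -1.03 ± 0.06 unstimulated (adjusted p = 3.7e-12), -0.85 ± 0.059 with TGF-β (adjusted p = 6.9e-11) and -0.30 ± 0.061 with PDGF-BB (adjusted p = 0.00025). Colgalt1 is the main collagen galactosyltransferase. Colgalt1 stood at 112, 123 and 121 CPM in the unstimulated scramble libraries, at 233, 236 and 233 CPM with TGF-β and at 108, 105 and 98.2 CPM with PDGF-BB. With the siRNA, Colgalt1 stood at 176, 167 and 170 CPM unstimulated, at 417, 431 and 413 CPM with TGF-β and at 173, 181 and 179 CPM with PDGF-BB. Libraries with the siRNA lie above scramble in each medium without overlap. Colgalt1 had a log2 fold change of 0.98 ± 0.044 with TGF-β (adjusted p = 2.6e-14) and of -0.20 ± 0.044 with PDGF-BB (adjusted p = 0.0014). For Colgalt1, the siRNA effect was 0.53 ± 0.044 unstimulated (adjusted p = 1.0e-09), 0.84 ± 0.043 with TGF-β (adjusted p = 3.3e-13) and 0.78 ± 0.044 with PDGF-BB (adjusted p = 1.6e-12). Plod3, which combines hydroxylase and glycosyltransferase activity, ranged from 123 to 270 CPM and had siRNA effects of 0.15 ± 0.058, 0.30 ± 0.057 and 0.18 ± 0.058, of which the first was lost in 5 of 12 alternative fits and the third in 3. Exons of Plod3 share 529 bases with Znhit1 on the opposite strand, and reads there may be split between them, since the strand used for counting is not given in the sources used here.

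The balance of Plod2 transcripts is given beside its level. Plod2-203, which holds the exon shown above, took 98.8% ± 0.121 (SD, n = 3) of the Plod2 counts in unstimulated scramble cells and 98.9% ± 0.133 with TGF-β. Its share was 98% ± 1.44 with PDGF-BB in scramble cells, and 98% ± 0.646, 98% ± 0.915 and 97.7% ± 1.28 in siRNA cells unstimulated, with TGF-β and with PDGF-BB. The difference between siRNA and scramble cells without stimulation was -0.8 percentage points (exact permutation test, two-sided, p = 0.1, the smallest that 3 against 3 libraries allow), so this design cannot pass 0.05. These shares are StringTie's assignments and not direct junction counts.

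The 3-hydroxylation complex joins the enzyme P3h1, its helper Crtap and the cyclophilin encoded by Ppib, and P3h3 and P3h4 are relatives known to work with lysyl hydroxylation. With TGF-β 4 of the 5 rose, with P3h1 at 2.78-fold and Ppib at 1.22-fold, while Crtap (1.05-fold) did not pass. Under the siRNA all 5 rose in cells given TGF-β, by 1.39- to 1.89-fold. P3h1 is the prolyl 3-hydroxylase. P3h1 lies on chromosome 4, 119232915 to 119248975, plus strand. In scramble cells P3h1 measured 42.3, 46.9 and 44.1 CPM unstimulated, 124, 123 and 124 CPM with TGF-β and 47.2, 45.3 and 45.6 CPM with PDGF-BB. In siRNA cells P3h1 measured 52.2, 52.6 and 51.9, then 242, 222 and 236, then 63.1, 60.2 and 59.9 CPM in the same media. The siRNA libraries with TGF-β stand above all others, and the scramble libraries with PDGF-BB overlap the unstimulated ones. For P3h1, TGF-β gave a log2 fold change of 1.48 ± 0.046 (adjusted p = 5.6e-17) and PDGF-BB one of 0.05 ± 0.048 (adjusted p = 0.44). P3h1 had siRNA effects of 0.23 ± 0.048 unstimulated (adjusted p = 0.00028), 0.91 ± 0.043 with TGF-β (adjusted p = 1.1e-13) and 0.41 ± 0.047 with PDGF-BB (adjusted p = 1.6e-07). Crtap is the scaffold partner of P3h1. Crtap in unstimulated cells was at 104, 112 and 101 CPM with scramble and at 146, 157 and 144 CPM with the siRNA. Crtap was at 110, 108 and 116 against 191, 181 and 185 CPM under TGF-β, and at 93.8, 87.7 and 84.8 against 121, 122 and 125 CPM under PDGF-BB. All siRNA values lie above scramble in every medium without overlap, while scramble libraries with TGF-β overlap those without. Crtap had a log2 fold change of 0.08 ± 0.05 with TGF-β (adjusted p = 0.23) and of -0.25 ± 0.05 with PDGF-BB (adjusted p = 0.00043). For Crtap, the siRNA effect was 0.49 ± 0.049 unstimulated (adjusted p = 2.2e-08), 0.74 ± 0.05 with TGF-β (adjusted p = 4.1e-11) and 0.46 ± 0.05 with PDGF-BB (adjusted p = 5.7e-08). Ppib encodes a prolyl isomerase of the complex. Ppib stood at 225, 219 and 217 CPM in the unstimulated scramble libraries, at 266, 255 and 285 CPM with TGF-β and at 248, 197 and 216 CPM with PDGF-BB. With the siRNA, Ppib stood at 220, 228 and 224 CPM unstimulated, at 377, 358 and 389 CPM with TGF-β and at 214, 198 and 197 CPM with PDGF-BB. The siRNA libraries with TGF-β are the highest, and the siRNA and scramble groups overlap in the other media. For Ppib, TGF-β gave a log2 fold change of 0.29 ± 0.062 (adjusted p = 0.00053) and PDGF-BB one of 0.00 ± 0.062 (adjusted p = 0.99). Ppib had siRNA effects of 0.02 ± 0.062 unstimulated (adjusted p = 0.76), 0.48 ± 0.061 with TGF-β (adjusted p = 9.5e-07) and -0.12 ± 0.062 with PDGF-BB (adjusted p = 0.11). P3h3 is a paralog of P3h1. In scramble cells P3h3 measured 72.5, 73.8 and 73 CPM unstimulated, 79.5, 83.3 and 87.3 CPM with TGF-β and 69.4, 62.5 and 62.2 CPM with PDGF-BB. In siRNA cells P3h3 measured 104, 102 and 102, then 130, 118 and 128, then 77.1, 81.4 and 74.2 CPM in the same media. The siRNA groups lie above their scramble groups in each medium. P3h3 had a log2 fold change of 0.19 ± 0.052 with TGF-β (adjusted p = 0.0045) and of -0.18 ± 0.053 with PDGF-BB (adjusted p = 0.012). For P3h3, the siRNA effect was 0.49 ± 0.052 unstimulated (adjusted p = 5.2e-08), 0.59 ± 0.051 with TGF-β (adjusted p = 2.9e-09) and 0.26 ± 0.052 with PDGF-BB (adjusted p = 0.00019). P3h4 is a non-catalytic relative. P3h4 in unstimulated cells was at 74, 66.1 and 68.1 CPM with scramble and at 85.9, 88.2 and 88.8 CPM with the siRNA. P3h4 was at 118, 113 and 124 against 199, 193 and 211 CPM under TGF-β, and at 83.8, 66.3 and 68.9 against 83.9, 71.6 and 75.9 CPM under PDGF-BB. The siRNA libraries lie above scramble unstimulated and with TGF-β, and overlap with PDGF-BB. For P3h4, TGF-β gave a log2 fold change of 0.77 ± 0.072 (adjusted p = 7.5e-09) and PDGF-BB one of 0.07 ± 0.073 (adjusted p = 0.48). P3h4 had siRNA effects of 0.34 ± 0.073 unstimulated (adjusted p = 0.0005), 0.76 ± 0.07 with TGF-β (adjusted p = 5.9e-09) and 0.08 ± 0.073 with PDGF-BB (adjusted p = 0.36). Ppib shares 825 exon bases with Snx22 on the opposite strand, which had a mean count of 12.6 against 4834.

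Serpinh1, a serpin that binds the collagen triple helix, and Fkbp10, a prolyl isomerase that works with lysyl hydroxylation, both rose with TGF-β, by 1.61- and 2.31-fold. The siRNA lowered Serpinh1 and raised Fkbp10 without stimulation and with PDGF-BB. Serpinh1 is the chaperone most specific to collagen. Serpinh1 lies on chromosome 7, 99345376 to 99353239, minus strand. Serpinh1 stood at 1158, 1129 and 1076 CPM in the unstimulated scramble libraries, at 1800, 1783 and 1836 CPM with TGF-β and at 1008, 907 and 916 CPM with PDGF-BB. With the siRNA, Serpinh1 stood at 875, 860 and 863 CPM unstimulated, at 1786, 1741 and 1757 CPM with TGF-β and at 759, 702 and 690 CPM with PDGF-BB. Libraries with the siRNA lie below scramble without TGF-β, and both groups with TGF-β overlap. Serpinh1 had a log2 fold change of 0.69 ± 0.042 with TGF-β (adjusted p = 5.7e-12) and of -0.25 ± 0.042 with PDGF-BB (adjusted p = 6.5e-05). For Serpinh1, the siRNA effect was -0.37 ± 0.042 unstimulated (adjusted p = 1.3e-07), -0.04 ± 0.042 with TGF-β (adjusted p = 0.5) and -0.40 ± 0.042 with PDGF-BB (adjusted p = 4.3e-08). Fkbp10 is mutated in a brittle bone disease. Fkbp10 lies on chromosome 11, 100415697 to 100424824, plus strand. In scramble cells Fkbp10 measured 136, 135 and 129 CPM unstimulated, 298, 290 and 336 CPM with TGF-β and 180, 149 and 156 CPM with PDGF-BB. In siRNA cells Fkbp10 measured 188, 193 and 188, then 616, 582 and 610, then 211, 200 and 193 CPM in the same media. All siRNA values lie above scramble in each medium without overlap. For Fkbp10, TGF-β gave a log2 fold change of 1.21 ± 0.061 (adjusted p = 2.6e-13) and PDGF-BB one of 0.28 ± 0.061 (adjusted p = 0.0011). Fkbp10 had siRNA effects of 0.51 ± 0.061 unstimulated (adjusted p = 3.9e-07), 0.97 ± 0.06 with TGF-β (adjusted p = 9.5e-12) and 0.31 ± 0.061 with PDGF-BB (adjusted p = 0.00013). P3h4 and Fkbp10 are neighbours on chromosome 11, read away from each other with 860 bases between them in GENCODE M21, and each had a positive siRNA effect without stimulation (0.34 and 0.51) and with TGF-β (0.76 and 0.97), while with PDGF-BB P3h4 (0.08) did not pass and Fkbp10 (0.31) did. Fkbp10 shares 193 exon bases with Nt5c3b on the opposite strand.

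**Figure D4:**
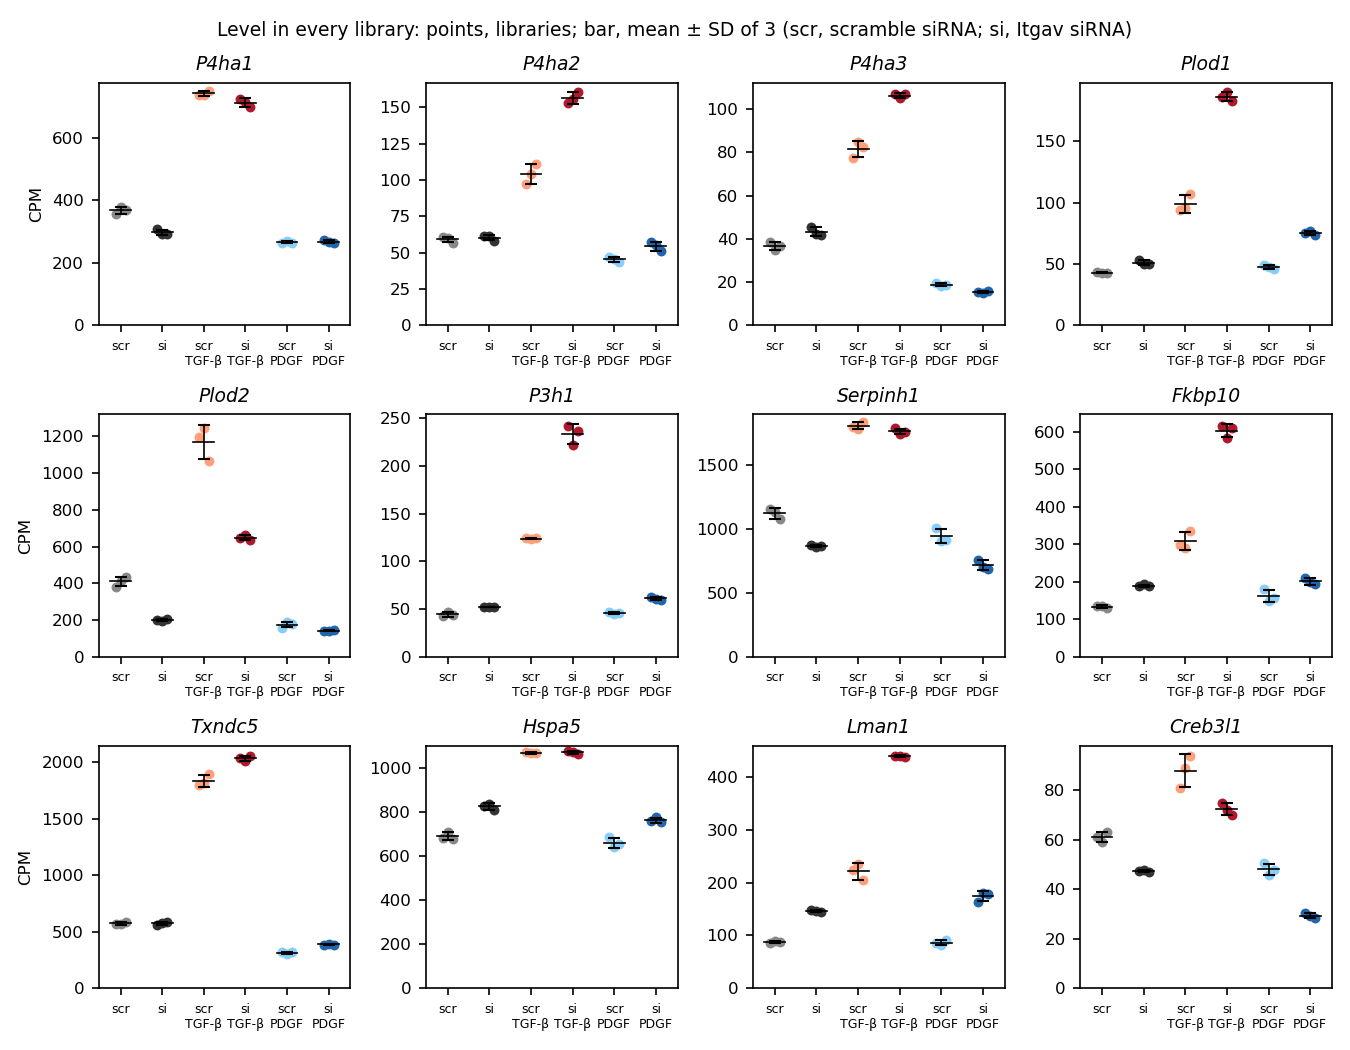
CPM (vertical axis, from 0) of 12 members in each of the 18 libraries, with the mean and SD of 3, for scramble (scr) and Itgav siRNA (si) cells in the 3 media. Plod2 and Creb3l1 lie lower with the siRNA in each medium, Plod1, Fkbp10 and Lman1 higher, and Hspa5 is level at 1063 to 1076 CPM in the 6 TGF-β libraries.

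Chaperones that serve many cargoes come next. Of the 7 members of the BiP and HSP90 cycle, 6 rose with TGF-β, by 1.23- to 1.89-fold, and Sdf2l1 did not pass. Hspa5 encodes BiP, the central ER chaperone and a sensor partner of the stress response. Its element is the first printed above. Hspa5 lies on chromosome 2, 34771970 to 34777547, plus strand. Hspa5 in unstimulated cells was at 683, 710 and 677 CPM with scramble and at 826, 837 and 809 CPM with the siRNA. Hspa5 was at 1069, 1065 and 1064 against 1076, 1069 and 1063 CPM under TGF-β, and at 685, 641 and 655 against 757, 774 and 754 CPM under PDGF-BB. Values in siRNA cells lie above scramble unstimulated and with PDGF-BB, and all 6 TGF-β libraries fall within 1063 to 1076 CPM. Hspa5 had a log2 fold change of 0.63 ± 0.033 with TGF-β (adjusted p = 4.2e-13) and of -0.06 ± 0.033 with PDGF-BB (adjusted p = 0.14). For Hspa5, the siRNA effect was 0.26 ± 0.033 unstimulated (adjusted p = 8.3e-07), 0.00 ± 0.033 with TGF-β (adjusted p = 0.93) and 0.21 ± 0.033 with PDGF-BB (adjusted p = 1.2e-05). Hyou1 is a nucleotide exchange factor for BiP. Hyou1 stood at 121, 130 and 130 CPM in the unstimulated scramble libraries, at 245, 240 and 237 CPM with TGF-β and at 122, 122 and 118 CPM with PDGF-BB. With the siRNA, Hyou1 stood at 119, 121 and 111 CPM unstimulated, at 245, 248 and 245 CPM with TGF-β and at 118, 131 and 122 CPM with PDGF-BB. The TGF-β libraries stand apart at 237 CPM or more, and siRNA and scramble groups overlap with either stimulus. For Hyou1, TGF-β gave a log2 fold change of 0.92 ± 0.045 (adjusted p = 1.1e-13) and PDGF-BB one of -0.07 ± 0.045 (adjusted p = 0.23). Hyou1 had siRNA effects of -0.12 ± 0.045 unstimulated (adjusted p = 0.028), 0.03 ± 0.044 with TGF-β (adjusted p = 0.62) and 0.03 ± 0.045 with PDGF-BB (adjusted p = 0.53). Its fall without stimulation was lost in 4 of 12 alternative fits. Dnajb9 is a BiP co-chaperone induced by ER stress. In scramble cells Dnajb9 measured 66.6, 65.7 and 68.3 CPM unstimulated, 85.4, 82.3 and 79 CPM with TGF-β and 51.7, 53.8 and 56.1 CPM with PDGF-BB. In siRNA cells Dnajb9 measured 70.8, 66.5 and 68.9, then 96.9, 94.8 and 98.4, then 76.2, 78.2 and 80.5 CPM in the same media. The siRNA libraries exceed scramble with TGF-β and with PDGF-BB and overlap without. Dnajb9 had a log2 fold change of 0.30 ± 0.046 with TGF-β (adjusted p = 1.2e-05) and of -0.31 ± 0.047 with PDGF-BB (adjusted p = 1.6e-05). For Dnajb9, the siRNA effect was 0.04 ± 0.046 unstimulated (adjusted p = 0.48), 0.23 ± 0.045 with TGF-β (adjusted p = 0.00018) and 0.54 ± 0.046 with PDGF-BB (adjusted p = 1.7e-09). Dnajc3 is a BiP co-chaperone that also restrains a stress kinase. Dnajc3 in unstimulated cells was at 194, 210 and 208 CPM with scramble and at 241, 231 and 238 CPM with the siRNA. Dnajc3 was at 316, 312 and 293 against 405, 416 and 386 CPM under TGF-β, and at 139, 153 and 146 against 190, 198 and 203 CPM under PDGF-BB. The siRNA libraries lie above scramble in each medium without overlap. For Dnajc3, TGF-β gave a log2 fold change of 0.59 ± 0.046 (adjusted p = 3.2e-10) and PDGF-BB one of -0.48 ± 0.046 (adjusted p = 3.0e-08). Dnajc3 had siRNA effects of 0.22 ± 0.046 unstimulated (adjusted p = 0.00037), 0.39 ± 0.045 with TGF-β (adjusted p = 2.3e-07) and 0.43 ± 0.046 with PDGF-BB (adjusted p = 5.3e-08). Of the others, Hsp90b1, the ER member of the HSP90 family, measured 1242 to 1785 CPM and had siRNA effects of -0.13 ± 0.033, -0.03 ± 0.033 and 0.03 ± 0.033, the first past the threshold (adjusted p = 0.0026). Dnajb11, a co-chaperone, measured 118 to 203 CPM with effects of -0.06 ± 0.052, 0.12 ± 0.051 and 0.14 ± 0.052. Sdf2l1, a partner of BiP, had the lowest mean CPM over the 18 libraries, though P4ha3 was lower in 5 of the 6 with PDGF-BB. It measured 15.6 to 25.5 CPM with effects of -0.26 ± 0.11, -0.16 ± 0.11 and -0.30 ± 0.11, and its groups overlapped without stimulation and with PDGF-BB.

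Disulfide isomerases and lectin chaperones all rose with TGF-β, but 5 of the 6 by only 1.19- to 1.4-fold. Txndc5 stood apart at 3.19-fold, and with PDGF-BB it fell to 0.544 of its unstimulated level. Lectin chaperones bind glycoproteins with trimmed sugars, and isomerases form and exchange their disulfides. Txndc5 is a disulfide isomerase known in fibrosis as a gene induced by TGF-β. Txndc5 lies on chromosome 13, 38500079 to 38528824, minus strand. Txndc5 stood at 568, 568 and 587 CPM in the unstimulated scramble libraries, at 1795, 1815 and 1893 CPM with TGF-β and at 321, 300 and 317 CPM with PDGF-BB. With the siRNA, Txndc5 stood at 561, 575 and 587 CPM unstimulated, at 2033, 2013 and 2054 CPM with TGF-β and at 387, 395 and 383 CPM with PDGF-BB. The unstimulated groups overlap, the siRNA libraries exceed scramble with either stimulus, and the PDGF-BB libraries are the lowest. Txndc5 had a log2 fold change of 1.68 ± 0.035 with TGF-β (adjusted p = 7.1e-20) and of -0.88 ± 0.035 with PDGF-BB (adjusted p = 1.4e-14). For Txndc5, the siRNA effect was 0.00 ± 0.034 unstimulated (adjusted p = 0.99), 0.15 ± 0.034 with TGF-β (adjusted p = 0.00097) and 0.31 ± 0.035 with PDGF-BB (adjusted p = 9.1e-08). Pdia3 is the isomerase that works with the lectin chaperones. In scramble cells Pdia3 measured 1207, 1200 and 1189 CPM unstimulated, 1391, 1352 and 1530 CPM with TGF-β and 1239, 1116 and 1158 CPM with PDGF-BB. In siRNA cells Pdia3 measured 1235, 1261 and 1201, then 1714, 1662 and 1730, then 1240, 1178 and 1167 CPM in the same media. The siRNA libraries exceed scramble with TGF-β and overlap in the other media. For Pdia3, TGF-β gave a log2 fold change of 0.25 ± 0.044 (adjusted p = 6.1e-05) and PDGF-BB one of -0.03 ± 0.044 (adjusted p = 0.59). Pdia3 had siRNA effects of 0.04 ± 0.044 unstimulated (adjusted p = 0.46), 0.26 ± 0.044 with TGF-β (adjusted p = 4.1e-05) and 0.03 ± 0.044 with PDGF-BB (adjusted p = 0.58). Pdia4 is an isomerase of the stress response. Pdia4 in unstimulated cells was at 242, 251 and 243 CPM with scramble and at 237, 233 and 235 CPM with the siRNA. Pdia4 was at 347, 343 and 341 against 379, 368 and 370 CPM under TGF-β, and at 247, 225 and 234 against 242, 239 and 244 CPM under PDGF-BB. The TGF-β libraries are at 341 CPM or more and the rest at 251 or less. Pdia4 had a log2 fold change of 0.49 ± 0.037 with TGF-β (adjusted p = 2.6e-10) and of -0.06 ± 0.037 with PDGF-BB (adjusted p = 0.21). For Pdia4, the siRNA effect was -0.06 ± 0.037 unstimulated (adjusted p = 0.17), 0.12 ± 0.037 with TGF-β (adjusted p = 0.012) and 0.04 ± 0.037 with PDGF-BB (adjusted p = 0.36). Pdia6 is an isomerase that tunes stress sensors. Pdia6 stood at 352, 356 and 342 CPM in the unstimulated scramble libraries, at 423, 411 and 415 CPM with TGF-β and at 315, 279 and 277 CPM with PDGF-BB. With the siRNA, Pdia6 stood at 295, 287 and 295 CPM unstimulated, at 357, 344 and 343 CPM with TGF-β and at 264, 252 and 243 CPM with PDGF-BB. All siRNA values lie below scramble in each medium without overlap. For Pdia6, TGF-β gave a log2 fold change of 0.25 ± 0.045 (adjusted p = 8.3e-05) and PDGF-BB one of -0.27 ± 0.045 (adjusted p = 6.7e-05). Pdia6 had siRNA effects of -0.26 ± 0.045 unstimulated (adjusted p = 5.0e-05), -0.26 ± 0.045 with TGF-β (adjusted p = 5.7e-05) and -0.20 ± 0.046 with PDGF-BB (adjusted p = 0.00074). Calr encodes calreticulin, the soluble lectin chaperone. In scramble cells Calr measured 1001, 1005 and 992 CPM unstimulated, 1288, 1257 and 1296 CPM with TGF-β and 1025, 949 and 963 CPM with PDGF-BB. In siRNA cells Calr measured 924, 924 and 896, then 1246, 1199 and 1217, then 944, 964 and 934 CPM in the same media. Values in siRNA cells lie below scramble unstimulated and with TGF-β and overlap with PDGF-BB. Calr had a log2 fold change of 0.36 ± 0.033 with TGF-β (adjusted p = 7.5e-09) and of -0.03 ± 0.033 with PDGF-BB (adjusted p = 0.53). For Calr, the siRNA effect was -0.13 ± 0.033 unstimulated (adjusted p = 0.0028), -0.07 ± 0.033 with TGF-β (adjusted p = 0.096) and -0.05 ± 0.033 with PDGF-BB (adjusted p = 0.23). Canx, the membrane-bound partner of Calr, measured 927 to 1252 CPM and had siRNA effects of -0.12 ± 0.034, -0.06 ± 0.034 and 0.13 ± 0.034. Txndc5 shares 224 exon bases with Bmp6 on the opposite strand, which had a mean count of 260 against 17752.

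Translocation genes rose with TGF-β, 6 of 6, within a narrow range of 1.27- to 1.59-fold, and 5 of the 6 did not pass with PDGF-BB. The Sec61 channel admits the chain, the signal recognition particle receptor docks the ribosome, and Sec62 and Sec63 assist the channel. Sec62 and Sec63 went opposite ways under the siRNA, up and down, in each of the 3 media. Sec61a1 is the pore subunit. Sec61a1 in unstimulated cells was at 197, 205 and 207 CPM with scramble and at 220, 214 and 219 CPM with the siRNA. Sec61a1 was at 310, 320 and 328 against 401, 418 and 414 CPM under TGF-β, and at 220, 210 and 205 against 224, 209 and 213 CPM under PDGF-BB. The siRNA libraries exceed scramble unstimulated and with TGF-β and overlap with PDGF-BB. For Sec61a1, TGF-β gave a log2 fold change of 0.65 ± 0.04 (adjusted p = 6.4e-12) and PDGF-BB one of 0.06 ± 0.04 (adjusted p = 0.26). Sec61a1 had siRNA effects of 0.10 ± 0.04 unstimulated (adjusted p = 0.042), 0.36 ± 0.04 with TGF-β (adjusted p = 8.3e-08) and 0.02 ± 0.04 with PDGF-BB (adjusted p = 0.64). The rise without stimulation was lost in 5 of 12 alternative fits. Srpr is the receptor subunit that binds the particle. Srpr stood at 169, 181 and 175 CPM in the unstimulated scramble libraries, at 273, 282 and 272 CPM with TGF-β and at 170, 182 and 164 CPM with PDGF-BB. With the siRNA, Srpr stood at 162, 159 and 162 CPM unstimulated, at 335, 353 and 341 CPM with TGF-β and at 168, 172 and 171 CPM with PDGF-BB. Libraries with the siRNA lie below scramble unstimulated, above it with TGF-β, and overlap with PDGF-BB. Srpr had a log2 fold change of 0.66 ± 0.041 with TGF-β (adjusted p = 9.1e-12) and of -0.02 ± 0.041 with PDGF-BB (adjusted p = 0.72). For Srpr, the siRNA effect was -0.12 ± 0.041 unstimulated (adjusted p = 0.018), 0.32 ± 0.041 with TGF-β (adjusted p = 9.3e-07) and -0.02 ± 0.041 with PDGF-BB (adjusted p = 0.73). Srprb anchors the receptor in the membrane. In scramble cells Srprb measured 72, 69.9 and 71.2 CPM unstimulated, 111, 117 and 111 CPM with TGF-β and 71, 68.1 and 72.6 CPM with PDGF-BB. In siRNA cells Srprb measured 67.8, 63.7 and 65.9, then 138, 149 and 144, then 71.3, 66.1 and 62.6 CPM in the same media. The TGF-β libraries are at 111 CPM or more and no other library exceeds 72.6. For Srprb, TGF-β gave a log2 fold change of 0.67 ± 0.049 (adjusted p = 1.4e-10) and PDGF-BB one of -0.01 ± 0.05 (adjusted p = 0.91). Srprb had siRNA effects of -0.11 ± 0.05 unstimulated (adjusted p = 0.07), 0.35 ± 0.048 with TGF-β (adjusted p = 2.9e-06) and -0.08 ± 0.05 with PDGF-BB (adjusted p = 0.17). Sec62 serves chains that enter after synthesis and also ER turnover. Sec62 in unstimulated cells was at 308, 321 and 305 CPM with scramble and at 410, 404 and 416 CPM with the siRNA. Sec62 was at 403, 392 and 393 against 472, 477 and 490 CPM under TGF-β, and at 256, 271 and 257 against 351, 367 and 360 CPM under PDGF-BB. The siRNA libraries lie above scramble in each medium without overlap. Sec62 had a log2 fold change of 0.35 ± 0.036 with TGF-β (adjusted p = 4.5e-08) and of -0.25 ± 0.036 with PDGF-BB (adjusted p = 8.3e-06). For Sec62, the siRNA effect was 0.40 ± 0.036 unstimulated (adjusted p = 4.9e-09), 0.28 ± 0.036 with TGF-β (adjusted p = 1.1e-06) and 0.46 ± 0.036 with PDGF-BB (adjusted p = 3.8e-10). Sec63 recruits BiP to the channel. Sec63 stood at 230, 246 and 258 CPM in the unstimulated scramble libraries, at 319, 315 and 313 CPM with TGF-β and at 219, 242 and 237 CPM with PDGF-BB. With the siRNA, Sec63 stood at 162, 169 and 166 CPM unstimulated, at 264, 263 and 266 CPM with TGF-β and at 171, 180 and 179 CPM with PDGF-BB. Values in siRNA cells lie below scramble in each medium without overlap. For Sec63, TGF-β gave a log2 fold change of 0.37 ± 0.044 (adjusted p = 3.9e-07) and PDGF-BB one of -0.07 ± 0.044 (adjusted p = 0.21). Sec63 had siRNA effects of -0.56 ± 0.045 unstimulated (adjusted p = 5.7e-10), -0.26 ± 0.044 with TGF-β (adjusted p = 4.9e-05) and -0.40 ± 0.045 with PDGF-BB (adjusted p = 1.1e-07). Sec61b, a small channel subunit, measured 35.1 to 74.8 CPM with siRNA effects of -0.28 ± 0.063, 0.11 ± 0.06 and -0.38 ± 0.063, past the threshold unstimulated and with PDGF-BB. The fall of Srpr without stimulation was lost in 4 of 12 alternative fits, and its exons share 50 bases with Fam118b and 39 with Tirap on the opposite strand. Srprb shares 888 exon bases with Gm20425 on the same strand, a gene of GENCODE M21 that the deposited counts do not include.

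ER exit and ER shape genes rose with TGF-β, 5 of 5, and were higher with the siRNA in each of the 3 media, 5 of 5. Collagen leaves in COPII-coated carriers, whose inner coat is Sec23 and Sec24, with Mia3 as the receptor that fits the coat to collagen. Sec23a is the inner coat subunit whose loss impairs collagen export. In scramble cells Sec23a measured 169, 176 and 180 CPM unstimulated, 395, 394 and 355 CPM with TGF-β and 133, 164 and 159 CPM with PDGF-BB. In siRNA cells Sec23a measured 225, 218 and 223, then 633, 638 and 637, then 245, 265 and 271 CPM in the same media. The siRNA libraries with TGF-β lie within 633 to 638 CPM, and each siRNA group exceeds its scramble group. Sec23a had a log2 fold change of 1.13 ± 0.061 with TGF-β (adjusted p = 7.3e-13) and of -0.20 ± 0.061 with PDGF-BB (adjusted p = 0.013). For Sec23a, the siRNA effect was 0.35 ± 0.061 unstimulated (adjusted p = 5.2e-05), 0.74 ± 0.059 with TGF-β (adjusted p = 7.5e-10) and 0.78 ± 0.061 with PDGF-BB (adjusted p = 3.7e-10). Lman1 is the lectin cargo receptor of the early secretory pathway. Lman1 in unstimulated cells was at 86.5, 89.8 and 88.1 CPM with scramble and at 148, 146 and 144 CPM with the siRNA. Lman1 was at 224, 236 and 204 against 440, 440 and 438 CPM under TGF-β, and at 85.3, 82.6 and 91.4 against 164, 181 and 178 CPM under PDGF-BB. The siRNA libraries with TGF-β fall within 438 to 440 CPM, and the scramble libraries unstimulated and with PDGF-BB overlap. For Lman1, TGF-β gave a log2 fold change of 1.33 ± 0.052 (adjusted p = 2.6e-15) and PDGF-BB one of -0.03 ± 0.053 (adjusted p = 0.72). Lman1 had siRNA effects of 0.73 ± 0.052 unstimulated (adjusted p = 9.0e-11), 0.99 ± 0.05 with TGF-β (adjusted p = 3.5e-13) and 1.01 ± 0.052 with PDGF-BB (adjusted p = 3.1e-13). Ckap4 shapes ER sheets and binds microtubules. Ckap4 stood at 200, 197 and 203 CPM in the unstimulated scramble libraries, at 420, 426 and 426 CPM with TGF-β and at 213, 195 and 199 CPM with PDGF-BB. With the siRNA, Ckap4 stood at 214, 215 and 209 CPM unstimulated, at 645, 631 and 647 CPM with TGF-β and at 233, 229 and 225 CPM with PDGF-BB. Scramble libraries with PDGF-BB overlap the unstimulated ones, and each siRNA group exceeds its scramble group. Ckap4 had a log2 fold change of 1.09 ± 0.037 with TGF-β (adjusted p = 2.2e-16) and of 0.02 ± 0.037 with PDGF-BB (adjusted p = 0.74). For Ckap4, the siRNA effect was 0.09 ± 0.037 unstimulated (adjusted p = 0.037), 0.60 ± 0.036 with TGF-β (adjusted p = 7.1e-12) and 0.18 ± 0.037 with PDGF-BB (adjusted p = 0.00025). The rise of Ckap4 without stimulation was lost in 5 of 12 alternative fits. Mia3 measured 145 to 323 CPM with siRNA effects of 0.24 ± 0.052, 0.54 ± 0.052 and 0.45 ± 0.052, all past the threshold. Sec24d, the coat subunit that binds cargo, measured 85.3 to 230 CPM with effects of 0.22 ± 0.062, 0.41 ± 0.061 and 0.47 ± 0.062, also past it.

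Transcription factors of the secretory program rose with TGF-β, 3 of 3, and fell with PDGF-BB, 3 of 3. Creb3l1 and Creb3l2 are ER membrane proteins released by cleavage, and XBP1 is made active by splicing of its mRNA in the cytoplasm. The siRNA lowered Creb3l1 and raised Creb3l2 in each of the 3 media. Xbp1 encodes the stress factor. Xbp1 lies on chromosome 11, 5520659 to 5525893, plus strand. In scramble cells Xbp1 measured 80.5, 79.1 and 75.8 CPM unstimulated, 120, 119 and 126 CPM with TGF-β and 68.9, 66.4 and 65 CPM with PDGF-BB. In siRNA cells Xbp1 measured 66.1, 69.4 and 67.4, then 144, 140 and 141, then 67.3, 71.5 and 67.7 CPM in the same media. Libraries with the siRNA lie below scramble unstimulated and above it with TGF-β. For Xbp1, TGF-β gave a log2 fold change of 0.63 ± 0.043 (adjusted p = 3.7e-11) and PDGF-BB one of -0.23 ± 0.044 (adjusted p = 0.00024). Xbp1 had siRNA effects of -0.21 ± 0.044 unstimulated (adjusted p = 0.0003), 0.22 ± 0.042 with TGF-β (adjusted p = 0.00018) and 0.04 ± 0.044 with PDGF-BB (adjusted p = 0.4). Creb3l1 is known to drive collagen genes in bone. Creb3l1 lies on chromosome 2, 91982328 to 92024502, minus strand. Creb3l1 in unstimulated cells was at 61.1, 59.1 and 63.2 CPM with scramble and at 47.5, 47.9 and 46.9 CPM with the siRNA. Creb3l1 was at 80.9, 89 and 94 against 74.8, 72.1 and 70.2 CPM under TGF-β, and at 50.5, 45.9 and 47.7 against 30.3, 29.3 and 28.6 CPM under PDGF-BB. Each siRNA group lies below its scramble group without overlap, and the siRNA libraries with PDGF-BB are the lowest. Creb3l1 had a log2 fold change of 0.53 ± 0.054 with TGF-β (adjusted p = 3.2e-08) and of -0.35 ± 0.055 with PDGF-BB (adjusted p = 3.2e-05). For Creb3l1, the siRNA effect was -0.37 ± 0.055 unstimulated (adjusted p = 7.8e-06), -0.28 ± 0.054 with TGF-β (adjusted p = 0.00014) and -0.71 ± 0.058 with PDGF-BB (adjusted p = 8.2e-10). Creb3l2 is known to drive secretory coat genes in cartilage. Creb3l2 lies on chromosome 6, 37327255 to 37442146, minus strand. Creb3l2 stood at 91.1, 100 and 99.2 CPM in the unstimulated scramble libraries, at 436, 450 and 369 CPM with TGF-β and at 70.3, 82.2 and 79.4 CPM with PDGF-BB. With the siRNA, Creb3l2 stood at 114, 117 and 122 CPM unstimulated, at 620, 654 and 605 CPM with TGF-β and at 93.5, 109 and 107 CPM with PDGF-BB. The TGF-β libraries are all at 369 CPM or more and no other library exceeds 122. For Creb3l2, TGF-β gave a log2 fold change of 2.11 ± 0.073 (adjusted p = 2.8e-16) and PDGF-BB one of -0.33 ± 0.073 (adjusted p = 0.0014). Creb3l2 had siRNA effects of 0.28 ± 0.072 unstimulated (adjusted p = 0.0022), 0.58 ± 0.068 with TGF-β (adjusted p = 2.6e-07) and 0.42 ± 0.073 with PDGF-BB (adjusted p = 4.4e-05). Of the Xbp1 counts, transcript Xbp1-201 took 93.5% ± 1.55 (SD, n = 3) in unstimulated scramble cells and 92.1% ± 0.489 with TGF-β, and 92.1% to 94.3% as a group mean in all 6 groups. The largest difference, 1.8 percentage points between siRNA and scramble cells with TGF-β, had p = 0.1 in an exact permutation test (two-sided, the smallest that 3 against 3 allow). A protein-coding Xbp1 transcript that GENCODE M21 lacks took 4.2% to 4.45% of the counts with TGF-β in scramble cells. With TGF-β and the siRNA it took 1.9% to 2.99%, and the groups overlapped in the other media. This transcript was not identified further or tested, and the cytoplasmic splice form of Xbp1 was not analysed here.

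The siRNA effect itself differed between media for many members. The difference between its effect with TGF-β and its effect without stimulation was positive and past the threshold for 26 members and negative for 1, where 12.2% and 11% of all genes passed in each direction (23.2% in either), and the member median was 0.24 against 0.00 over all genes. Of the 7492 genes at or above the lowest member mean, 17.9% passed upward and 16% downward. The largest member differences were those of P3h1 (0.68 ± 0.064, adjusted p = 6.9e-08), Plod1 (0.66 ± 0.071, adjusted p = 3.9e-07), P4ha2 (0.57 ± 0.074, adjusted p = 6.8e-06) and Ckap4 (0.50 ± 0.052, adjusted p = 2.2e-07). Hspa5 was the negative one (-0.25 ± 0.046, adjusted p = 0.00031), the siRNA effect being 0.26 without stimulation and 0.00 with TGF-β. By role these were 5 of 6 translocation genes, 4 of 5 in the 3-hydroxylation group and 4 of 5 ER exit genes, but 1 positive of 7 in the BiP and HSP90 cycle. A positive difference was not always a rise with the siRNA under TGF-β. Sec63 fell there, and P4ha1, Serpinh1 and Sec61b did not pass, while the other members with a positive difference rose. Srpr and Srprb differed by 0.44 ± 0.058 and 0.46 ± 0.07, with the siRNA effect on each at -0.12 and -0.11 without stimulation and at 0.32 and 0.35 with TGF-β. Plod2 did not pass here (0.18 ± 0.084, adjusted p = 0.14).

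With PDGF-BB in place of TGF-β, 15 members had a positive difference and 3 a negative one, where 9.51% and 9.32% of all genes did (18.8% in either direction), with a member median of 0.12 against -0.01. Of the 7492 genes at or above the lowest member mean, 15.5% passed upward and 15% downward. Plod2 had the largest member difference (0.73 ± 0.086, adjusted p = 4.0e-06), its siRNA effect being -1.03 without stimulation and -0.30 with PDGF-BB. Dnajb9 (0.50 ± 0.065, adjusted p = 1.6e-05) and Sec23a (0.43 ± 0.086, adjusted p = 0.0013) followed. The negative ones were P4ha3 (-0.54 ± 0.083, adjusted p = 0.0001), Creb3l1 (-0.34 ± 0.081, adjusted p = 0.0051) and P3h3 (-0.23 ± 0.074, adjusted p = 0.037). Without the second scramble library with PDGF-BB the negative ones numbered 6. The comparisons of media share the unstimulated scramble and siRNA libraries, and the values for a gene in them are set side by side only.

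Other genes of the same pathways, in 6 lists of 95 genes that share no member with the 42, are given by count. These lists too were chosen with earlier results of these data known. Over all genes tested, 23.4% rose and 24.8% fell with TGF-β in scramble cells (32% and 28.8% of the 7492 expressed genes above). With TGF-β in scramble cells, 17 of 21 tested chaperone and quality control genes rose, among them the isomerase Pdia5 (1.24 ± 0.063) and Herpud1 (0.89 ± 0.056), which serves ER degradation. Of 25 genes of translocation, signal peptidase and oligosaccharyltransferase 22 rose, among them Ostc (0.85 ± 0.044) and Rpn1 (0.75 ± 0.039), both of the enzyme that adds glycans. Of 15 COPII genes 13 rose, among them the cargo receptor Surf4 (0.74 ± 0.035) and the coat GTPase Sar1a (0.61 ± 0.036). Of 16 tested collagen processing genes 11 rose and 3 fell, the protease Tll1 (2.21 ± 0.083) and the isomerase Fkbp14 (1.21 ± 0.046) among the former, and the procollagen proteases Adamts2 (-0.34 ± 0.042) and Adamts14 (-1.12 ± 0.2) among the latter. Of 10 stress sensors and factors 7 rose and 1 fell, with Trib3 (2.11 ± 0.16) and Atf4 (0.62 ± 0.06) up and Ddit3 (-0.34 ± 0.1), a factor of terminal ER stress, down. The 5 collagen chains listed as cargo all rose, with Col5a2 (2.29 ± 0.067) and Col1a2 (1.48 ± 0.052) among them and a median of 1.48.

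With PDGF-BB these lists gave 4 up and 5 down of 16 for collagen processing, 1 and 7 of 21 for chaperones, 6 and 6 of 25 for translocation, and 3 down of 15 for COPII. Over all genes tested, 16.9% rose and 19.2% fell with PDGF-BB (21.5% and 27.8% of the 7492 expressed genes above). The stress factors gave 1 down of 10, Mbtps2 (-0.20 ± 0.071), and collagen chains 1 up and 2 down of 5, Col5a1 (0.17 ± 0.067) against Col3a1 (-0.74 ± 0.063) and Col5a2 (-0.47 ± 0.065). Prominent single changes were the protease Adamts2 (-0.87 ± 0.043), the collagen-binding protein Sparc (-0.47 ± 0.028) and the secreted chaperone Manf (-0.38 ± 0.043), all down, and Tll1 (0.89 ± 0.084) and the signal peptidase subunit Spcs3 (0.42 ± 0.044), up.

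With the siRNA in unstimulated cells, 25.9% of all genes rose and 27.5% fell (29.3% and 39.7% of the 7492 expressed genes above). COPII genes beyond the members gave 3 up and 8 down of 15, with Klhl12 (-0.69 ± 0.077), an adaptor that enlarges carriers for collagen, and Preb (-0.44 ± 0.055), the factor that activates SAR1, down and Sar1a (0.70 ± 0.036) up. Translocation genes beyond the members gave 5 up and 10 down of 25, with Ssr1 (0.41 ± 0.038) and Ssr3 (0.22 ± 0.036) of the translocon-associated complex up and Spcs3 (-0.42 ± 0.044) and Tram2 (-0.58 ± 0.065), a translocon protein linked to collagen synthesis, down. Chaperone genes gave 10 up and 7 down of 21, the oxidase Ero1a (0.65 ± 0.047) and Hspa13 (0.62 ± 0.049) up and Manf (-0.63 ± 0.043) and Sel1l (-0.43 ± 0.05) down. Collagen processing gave 6 up and 5 down of 16, with the procollagen enhancer Pcolce2 (0.63 ± 0.056) up and Sparc (-0.52 ± 0.028) down. Stress sensors and factors gave 4 up and 2 down of 10, among them Ddit3 (0.77 ± 0.093) and Trib3 (1.27 ± 0.17) up and Atf6 and Eif2ak3 down. Collagen chains gave 3 up and 1 down of 5, Col3a1 (0.58 ± 0.062) and Col1a2 (0.26 ± 0.051) against Col1a1 (-0.16 ± 0.058).

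With the siRNA under TGF-β the counts were 16 up and 3 down of 25 for translocation, 10 and 3 of 21 for chaperones, 9 and 2 of 16 for collagen processing, 8 and 4 of 15 for COPII, 2 and 1 of 10 for stress factors, and 5 up of 5 for collagen chains. Over all genes tested, 24.1% rose and 24.3% fell there (28.5% and 35.3% of the 7492 expressed genes). Ssr1 (1.02 ± 0.037), Pdia5 (0.99 ± 0.057), Pcolce2 (1.25 ± 0.052) and Sar1a (0.88 ± 0.036) led their lists upward, and Klhl12 (-0.78 ± 0.076) was again down. The test of the difference from unstimulated cells passed upward for 14 of 25 translocation genes, 11 of 16 collagen processing genes, 8 of 15 COPII genes and 8 of 21 chaperone genes, where 12.2% of all genes did (17.9% of the 7492 expressed genes), and downward for 1 translocation gene and 2 collagen processing genes. Kdelr3 (0.75 ± 0.067), a receptor that returns ER proteins, Ssr1 (0.61 ± 0.053) and Surf4 (0.48 ± 0.05) had large positive differences. The stress genes Trib3 (-1.12 ± 0.22) and Ddit3 (-0.64 ± 0.14) had negative ones, and the stress kinase gene Eif2ak3 (0.51 ± 0.09) a positive one. Under PDGF-BB the siRNA gave 7 up and 9 down of 25, 9 and 6 of 21, 7 and 7 of 16, 5 and 7 of 15, 6 and 1 of 10, and 4 up of 5 in the order translocation, chaperones, collagen processing, COPII, stress factors and collagen chains, with Ero1a (1.17 ± 0.047) and Col3a1 (1.39 ± 0.064) the leading rises of their lists. Over all genes tested, 29.4% rose and 29.9% fell in that comparison (34.5% and 41.4% of the 7492 expressed genes).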

How the data were processed

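RNA of 18 libraries, 6 groups of 3, was sequenced, and groups and replicate numbers were taken from the labels. Per the submitters' processing notes, reads were handled with HISAT2 2.2.1 and StringTie 2.1.6 on mm10. The authors deposited estimated counts for 57180 genes, of which 25535 were at 0 in every library, and estimated counts per transcript. The deposited estimated counts were rounded before testing (76.2% of those above 0 were already whole). Each per-sample column was mapped to a sample through its label.

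All libraries were fitted together in edgeR 4.0.16 (quasi-likelihood, TMM factors 0.925 to 1.07, group means, 12 residual degrees of freedom). The low-count filter (minimum count 10) left 15832 genes and at least 99.91% of each library's counts. Common dispersion corresponded to a coefficient of variation of 6.01% between libraries of a group, which may be technical. The Benjamini-Hochberg adjustment ran over all genes tested with a threshold of 0.05, and a standard error is the log2 fold change divided by the square root of the F statistic. Between any pair of replicates, counts differed by more than counting noise (chi-square per degree of freedom at least 2.22). Isoform shares are transcript counts over the gene's sum, with exact permutation tests. The fit was tested on simulated data.

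Every member is named. Each library's value is given for P4ha1, P4ha2, P4ha3, Plod2, Serpinh1, Hspa5, Xbp1 and Creb3l1, and for the members with the 2 smallest p in each role group for TGF-β, for the siRNA in unstimulated cells and for their TGF-β difference. From each other list the 2 genes with the smallest p in each direction were eligible to be named. The members and lists were chosen with earlier results of these data known. Sequences come from RefSeq (GRCm38.p6) and GENCODE M21, whose gene names matched all 42 members. Software was Python 3.11.15 (scipy 1.17.1, numpy 2.4.6, pandas 2.3.3, matplotlib 3.10.9) and R 4.3.3 (DESeq2 1.42.0, limma 3.58.1). Alternatives were DESeq2 as the test, its size factors within edgeR, a filter at a mean of 1 CPM, no filter, a replicate block, fitting just the compared groups, and each library left out in turn.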

Additional observations from a re-analysis of the deposited data

Results flagged for a closer look

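The siRNA effect with TGF-β differed from that without stimulation, by an interaction test in edgeR, for 27 members. Each value is the log2 effect of the siRNA with TGF-β minus that in unstimulated cells. In the prolyl 4-hydroxylase group, TGF-β gave P4ha1 at 0.25, P4ha2 at 0.57 and P4hb at 0.34. In the lysyl hydroxylation group, TGF-β gave Plod1 at 0.66 and Colgalt1 at 0.32. In the 3-hydroxylation group, TGF-β gave P3h1 at 0.68, Crtap at 0.24, Ppib at 0.46 and P3h4 at 0.43. In the collagen chaperones, TGF-β gave Serpinh1 at 0.34 and Fkbp10 at 0.46. In the BiP and HSP90 cycle, TGF-β gave Hspa5 at -0.25 and Dnajb9 at 0.19. In the isomerases and lectin chaperones, TGF-β gave Pdia3 at 0.22, Pdia4 at 0.18 and Txndc5 at 0.15. In the translocation group, TGF-β gave Sec61a1 at 0.27, Sec61b at 0.39, Srpr at 0.44, Srprb at 0.46 and Sec63 at 0.31. In the ER exit group, TGF-β gave Mia3 at 0.30, Sec23a at 0.39, Lman1 at 0.26 and Ckap4 at 0.50. Among the transcription factors, TGF-β gave Xbp1 at 0.43 and Creb3l2 at 0.30. Their adjusted p ran from 6.9e-08 (P3h1) to 0.034 (Dnajb9).

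With PDGF-BB in place of TGF-β the same kind of test passed for 18 members, with values in the same form. In the prolyl 4-hydroxylase group, PDGF-BB gave P4ha1 at 0.31, P4ha2 at 0.23, P4ha3 at -0.54 and P4hb at 0.17. In the lysyl hydroxylation group, PDGF-BB gave Plod1 at 0.41, Plod2 at 0.73 and Colgalt1 at 0.25. In the 3-hydroxylation group, PDGF-BB gave P3h3 at -0.23. In the BiP and HSP90 cycle, PDGF-BB gave Hsp90b1 at 0.16, Dnajb9 at 0.50 and Dnajc3 at 0.21. In the isomerases and lectin chaperones, PDGF-BB gave Txndc5 at 0.31 and Canx at 0.24. In the ER exit group, PDGF-BB gave Sec23a at 0.43, Sec24d at 0.26 and Lman1 at 0.28. Among the transcription factors, PDGF-BB gave Xbp1 at 0.26 and Creb3l1 at -0.34. Their adjusted p ran from 4e-06 (Plod2) to 0.044 (Sec24d).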

How the results depend on the processing

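Of the member calls recomputed under the alternatives (12 for each pairwise comparison and 18 for each difference), 4356 kept their direction and side of the threshold, 138 lost the threshold, 42 gained it and none reversed. The number of members called stayed within 1.5 times of its value in each of these alternatives, but by direction the rises with PDGF-BB numbered 1 in place of 2 in 7 settings. Leaving out each library in turn gave 40 to 40 members called for TGF-β, 18 to 20 for PDGF-BB, 41 to 41 for TGF-β against PDGF-BB, 28 to 31 for the siRNA unstimulated, 31 to 33 with TGF-β, 29 to 30 with PDGF-BB, 22 to 27 for the TGF-β difference and 13 to 21 for the PDGF-BB difference. The other settings gave 40 to 40, 18 to 22, 41 to 41, 30 to 34, 31 to 33, 28 to 31, 24 to 28 and 16 to 22 in that order. Same-numbered replicates of different groups deviated with correlations of -0.0878 to 0.0966 over 45 pairs, so replicate numbers were not taken to pair libraries. With the replicate block, all-gene calls went from 7639 to 7779 for TGF-β and from 2981 to 3349 for the PDGF-BB difference, and members called with PDGF-BB from 20 to 22. DESeq2 size factors moved the median of all genes by at most 0.0105. Shares of Plod2-203, Plod2-201 and Xbp1-201 differed, with one library left out, by -1.11 to -0.462, -0.0575 to 0.621 and -0.807 to 0.691 percentage points for the siRNA unstimulated, and by 0.0558 to 0.196, -0.0774 to 0.0879 and -2.05 to -0.554 for TGF-β.

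Calls that did not survive every alternative, with libraries named by group and replicate number and each left out alone, were these. For PDGF-BB, the call of P3h3 was lost without scramble PDGF-BB 2 and 3 (adjusted p up to 0.066), Plod1 was lost with no low-count filter, when just the compared groups were fitted and without scramble unstimulated 1, 2 and 3 and scramble PDGF-BB 1 and 2 (adjusted p up to 0.12), Sec23a was lost when just the compared groups were fitted and without scramble unstimulated 3 and scramble PDGF-BB 1 (adjusted p up to 0.11). For the siRNA unstimulated, the call of Ckap4 was lost with no low-count filter and without scramble unstimulated 1 and 2 and siRNA unstimulated 1 and 2 (adjusted p up to 0.21), Hyou1 was lost with no low-count filter and without scramble unstimulated 2 and 3 and siRNA unstimulated 3 (adjusted p up to 0.2), Plod3 was lost without scramble unstimulated 1, 2 and 3 and siRNA unstimulated 1 and 3 (adjusted p up to 0.12), Sdf2l1 was lost with mean of at least 1 CPM and without scramble unstimulated 1 and 2 and siRNA unstimulated 2 and 3 (adjusted p up to 0.21), Sec61a1 was lost with no low-count filter and without scramble unstimulated 1 and 2 and siRNA unstimulated 1 and 3 (adjusted p up to 0.18), Srpr was lost with no low-count filter and without scramble unstimulated 2 and 3 and siRNA unstimulated 2 (adjusted p up to 0.11). For the siRNA with TGF-β, the call of Pdia4 was lost with no low-count filter and without siRNA TGF-β 1 (adjusted p up to 0.13). For the siRNA with PDGF-BB, the call of Dnajb11 was lost without scramble PDGF-BB 2 and siRNA PDGF-BB 1 (adjusted p up to 0.11), Plod3 was lost when just the compared groups were fitted and without scramble PDGF-BB 2 and siRNA PDGF-BB 1 (adjusted p up to 0.089), Sdf2l1 was lost when just the compared groups were fitted and without scramble PDGF-BB 1 and siRNA PDGF-BB 2 and 3 (adjusted p up to 0.2). For the TGF-β difference, the call of Creb3l2 was lost without scramble unstimulated 2 and 3, siRNA unstimulated 1 and 2, scramble TGF-β 3 and siRNA TGF-β 1 and 2 (adjusted p up to 0.1), Crtap was lost without scramble unstimulated 2, siRNA unstimulated 3, scramble TGF-β 2 and siRNA TGF-β 1 (adjusted p up to 0.07), Dnajb9 was lost with no low-count filter and without scramble unstimulated 1, 2 and 3, siRNA unstimulated 2 and 3, scramble TGF-β 2 and 3 and siRNA TGF-β 1 and 3 (adjusted p up to 0.18), Pdia3 was lost without siRNA unstimulated 3 and scramble TGF-β 1 and 2 (adjusted p up to 0.059), Pdia4 was lost with no low-count filter and without scramble unstimulated 2, siRNA unstimulated 2 and siRNA TGF-β 1 (adjusted p up to 0.11), Txndc5 was lost with no low-count filter and without scramble unstimulated 2 and 3, siRNA unstimulated 1 and 2, scramble TGF-β 1 and 2 and siRNA TGF-β 1, 2 and 3 (adjusted p up to 0.14). For the PDGF-BB difference, the call of Dnajc3 was lost without scramble unstimulated 2 and 3, siRNA unstimulated 2 and 3, scramble PDGF-BB 1 and siRNA PDGF-BB 2 and 3 (adjusted p up to 0.081), Hsp90b1 was lost with no low-count filter and without scramble unstimulated 2, siRNA unstimulated 1 and 3, scramble PDGF-BB 2 and 3 and siRNA PDGF-BB 2 (adjusted p up to 0.094), P3h3 was lost without scramble unstimulated 1, 2 and 3, siRNA unstimulated 1, 2 and 3, scramble PDGF-BB 1 and siRNA PDGF-BB 1 and 3 (adjusted p up to 0.11), P4ha2 was lost with no low-count filter and without scramble unstimulated 1 and 2, siRNA unstimulated 1, 2 and 3, scramble PDGF-BB 2 and 3 and siRNA PDGF-BB 1 and 2 (adjusted p up to 0.11), P4hb was lost with no low-count filter and without scramble unstimulated 2 and 3, siRNA unstimulated 2, scramble PDGF-BB 2 and 3 and siRNA PDGF-BB 2 (adjusted p up to 0.081), Sec24d was lost without scramble unstimulated 2 and 3, siRNA unstimulated 1, 2 and 3, scramble PDGF-BB 1 and 2 and siRNA PDGF-BB 2 and 3 (adjusted p up to 0.13). The causes were not tested.

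Without PDGF-BB replicate 2 of the scramble cells, 6 members in place of 3 had a negative PDGF-BB difference. The lowest member count in any library was 299 (P4ha3), and that of Sdf2l1 was 317 at the lowest. Neither the strand used in counting nor doses and times were known.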
